A study of Mus musculus with 6 samples.

Results

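The D cyclins, their kinase partner Cdk4 and the CDK inhibitors are described here in 6 cultures of primary mouse dermal fibroblasts, 3 given synthetic endothelin 1 (Et1, a peptide hormone best known for constricting vessels) at 100 nM for 24 hours and 3 given nothing. The members are the probe sets whose platform annotation gives exactly 1 gene symbol, equal to Ccnd1, Ccnd2, Ccnd3, Cdk4, Cdkn1a, Cdkn1b, Cdkn1c, Cdkn2a, Cdkn2b or Cdkn2c. These 10 genes, of 18193 with a probe set annotated to that gene alone on the Affymetrix Mouse430_2 array, had 24 of its 45037 probe sets. Both groups were cells of passage 6, grown out of the dermis of newborn B6 pups of mixed sex in high-glucose medium with fetal serum, and the controls were untreated. According to the series text, the cells were split into an Et1 and a control culture, and the labels call the 3 arrays of a group biological replicates without naming the animals. The p-values therefore measure the spread between these arrays, which may be partly technical.

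A cell in G1 commits to copying its DNA when cyclin D, bound to Cdk4 or Cdk6, begins to phosphorylate the retinoblastoma protein, which then releases E2F transcription factors. Growth factors act on this step largely through the level of cyclin D. There are a pair of inhibitor families: the Cip/Kip proteins (Cdkn1a, Cdkn1b and Cdkn1c, or p21, p27 and p57) bind cyclin-CDK complexes broadly, while the INK4 proteins (Cdkn2a, Cdkn2b and Cdkn2c, or p16, p15 and p18) bind Cdk4 and Cdk6 and keep cyclin D off them. In cultured fibroblasts p21 and the INK4 proteins are known for their part in the arrest of ageing and stressed cells.

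Sequences around transcription starts were taken from RefSeq (GRCm38.p6) for 7 of the members. No window was available for Ccnd1, Ccnd2 or Cdkn1c, so these were not searched. The 7 have 11 windows of 300 bases, from 250 before to 50 after each start. Of these windows 3 are shown. That of Cdk4 and 1 of Cdkn2c are shown because their probe sets separated the groups. A window of Cdkn1a is shown because a second gene that p53 controls is described below. Each is on the strand of the gene, 5′ to 3′. Capitals mark CACGTG, the E-box letters bound by Myc and related factors, in Cdk4 (chr10:127063285-127063584, plus strand). They mark TTCCCGC, one of 3 spellings of an E2F motif searched (with TTGGCGC and TTCGCGC), in Cdkn2c (chr4:109666707-109667006, minus strand). In Cdkn1a (chr17:29090729-29091028, plus strand) they mark a match to the p53 consensus with at most 1 mismatch in 20 bases, a motif that was added to the search after this sequence had been read.
Cdk4: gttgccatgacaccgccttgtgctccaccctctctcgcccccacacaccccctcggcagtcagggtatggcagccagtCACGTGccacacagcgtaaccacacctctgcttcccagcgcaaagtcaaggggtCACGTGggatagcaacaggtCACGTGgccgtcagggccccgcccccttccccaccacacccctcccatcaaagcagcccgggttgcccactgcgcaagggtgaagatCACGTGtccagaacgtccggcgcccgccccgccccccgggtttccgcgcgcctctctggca
Cdkn2c: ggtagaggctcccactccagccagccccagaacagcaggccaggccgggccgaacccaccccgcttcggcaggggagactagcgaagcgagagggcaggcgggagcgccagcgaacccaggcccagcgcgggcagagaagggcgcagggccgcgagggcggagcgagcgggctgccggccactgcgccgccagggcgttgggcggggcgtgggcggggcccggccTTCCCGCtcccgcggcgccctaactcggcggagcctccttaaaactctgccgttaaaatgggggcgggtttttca
Cdkn1a: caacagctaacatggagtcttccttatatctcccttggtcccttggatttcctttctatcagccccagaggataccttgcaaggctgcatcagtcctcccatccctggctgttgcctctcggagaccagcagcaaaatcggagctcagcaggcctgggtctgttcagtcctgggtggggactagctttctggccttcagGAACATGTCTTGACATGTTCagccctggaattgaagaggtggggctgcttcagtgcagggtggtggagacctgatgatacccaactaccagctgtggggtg
All motifs were searched on both strands. The Cdk4 window holds CACGTG 4 times, beginning 172, 118, 98 and 11 bases before the start. Of 32851 windows in the RefSeq table, 7.15% hold it at all and 8 hold 4 or more, 4 being the Cdk4 count itself. The E2F letters of Cdkn2c begin 25 bases before the start, and 8.07% of all windows have 1 of the 3 spellings. Of the other member windows, 1 of Cdkn2a holds E2F letters, 98 bases before its start, and the second window of Cdkn2c holds CACGTG once. The p53 match of Cdkn1a begins 51 bases before the start in the window shown, which is 1 of 29 windows with such a match, or 0.0883% of all. The search rule was set after this sequence had been read, so that share does not measure how unusual the match is. The other Cdkn1a window (chr17:29093519-29093818) holds no such match. The FOXO letters GTAAACA, present in 3.65% of windows, were found in 1 of the Ccnd3 windows, and the CRE letters TGACGTCA, present in 1.79%, in that of Cdkn2b. The SP1 letters GGGCGG, present in 35.7% of windows, were found in the Cdk4 and Cdkn2c windows shown. They were also found in the other Cdkn1a window, in both Ccnd3 and both Cdkn2a windows, and in those of Cdkn1b and Cdkn2b. The Cdkn1a window shown and the other Cdkn2c window did not hold them. The AP-1 letters TGACTCA or TGAGTCA, present in 5.202%, were found in none of the 11 member windows. A match describes letters and shows no binding.

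In the Et1 cultures no D cyclin, Cdk4 or CDK inhibitor transcript passed the test against control. Among tested probe sets, most of Ccnd1, Ccnd2 and Cdk4 had slightly higher mean log2 signals in Et1 arrays, those of Ccnd3, Cdkn1b, Cdkn1c, Cdkn2a, Cdkn2b and Cdkn2c had lower ones, and those of Cdkn1a were split. The sign for Cdkn2b, for Cdkn1a 1424638_at and for the Ccnd2 probe sets 1416123_at, 1416124_at, 1434745_at and 1448229_s_at turned under at least 1 other setting. In bulk RNA, less transcript per cell and fewer cells that express it cannot be told apart. The farthest from control were Cdkn1c, at a log2 fold change of -0.65, and Cdkn2c, at -0.64. Of the 24 probe sets, 21 had a mean signal over the 6 arrays at or above the filter of 41.0, the median of all probe sets, and were tested, with at least 1 for each of the 10 genes. With limma fitted across all 22519 tested probe sets, 0 of the 21 had an adjusted p under 0.05, beside 0.346% of all tested probe sets. At an unadjusted p under 0.05 there was 1, Cdkn2c, beside 12.3% of all, and the smallest adjusted p was 0.294. The 21 had a median log2 fold change of 0.14, with 13 above and 8 below 0, where the median over all tested probe sets was 0.03. The median of the 21 was -0.10 without Et1 replicate 2 and -0.10 without control replicate 3.

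**Figure D1:**
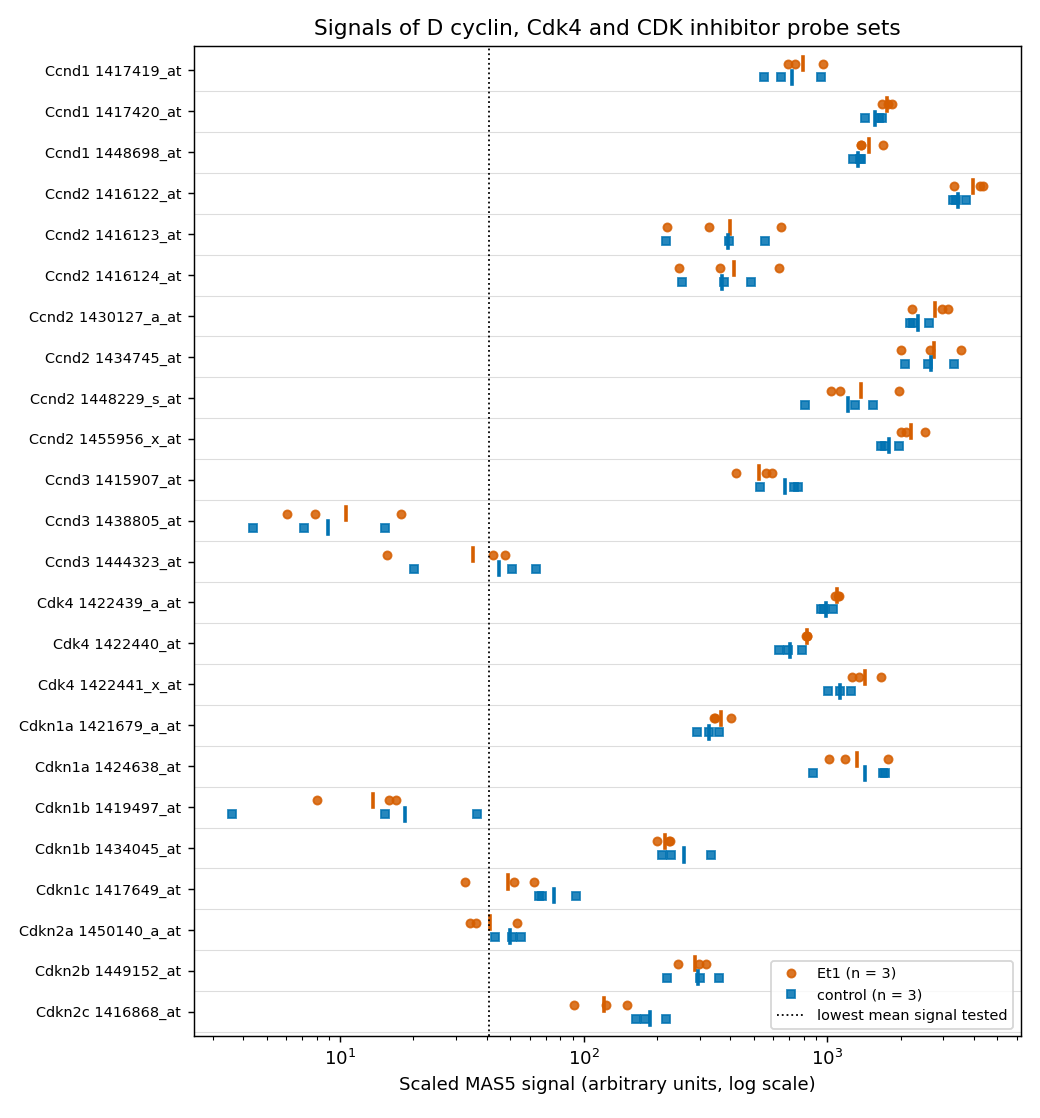
Scaled MAS5 signal (horizontal, log scale) of each of the 24 probe sets in each array; circles are Et1 and squares control cultures, vertical ticks the group means, and the dotted line the filter at a mean signal of 41.0. The groups overlap in most rows, while in Cdkn2c the 3 Et1 arrays (91.5 to 150) lie below the 3 control arrays (163 to 219).

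The groups did not overlap for 7 of the 21. All 3 Et1 arrays were above the controls for 5, namely 1 of Ccnd1, 1 of Ccnd2 and all 3 of Cdk4, as they were for 9.47% of all tested probe sets. They were below the controls for Cdkn2c and Cdkn1c, beside 8.11% of all. In terms of precision, the 95% interval of the Et1 difference from limma lay within a 1.5-fold change either way for 8 of the 21 and within a 2-fold change for 17. Small differences could therefore not be told from the spread of 3 arrays a group.

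**Figure D2:**
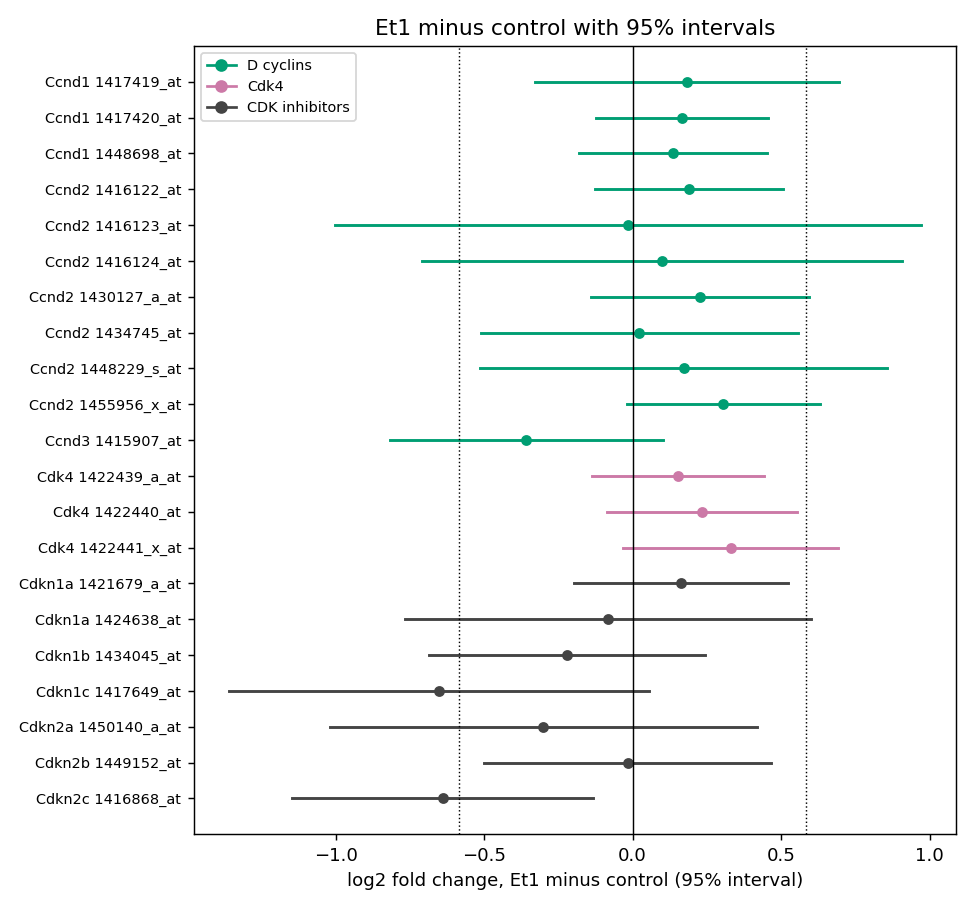
Log2 fold change (horizontal, Et1 minus control, limma) of each tested probe set with its 95% interval; green marks D cyclins, pink Cdk4 and grey the CDK inhibitors, and dotted lines mark a 1.5-fold change. Each interval but that of Cdkn2c (-1.14 to -0.13) includes 0.

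Ccnd1, the cyclin D that growth factors and Ras signalling induce in fibroblasts, had 3 probe sets, all with higher means in Et1 cultures. The probe set 1417420_at read 1782, 1844 and 1678 in Et1 arrays, against 1436, 1627 and 1673 in control arrays. Its groups were separated by a gap of only a few units, between the lowest Et1 and the highest control array. The log2 fold change was 0.17 (SE 0.13, 95% interval -0.12 to 0.46, limma adjusted p = 0.635). In 1448698_at the signals were 1370.3, 1695 and 1372 in Et1 arrays and 1359, 1382 and 1276 in control arrays, with 1 control above both of the lower Et1 arrays. The dimmest, 1417419_at, had 740 (Et1 replicate 1), 964 and 693 in Et1 arrays and 648, 944 and 551 in control arrays; replicate 2 of each group stood well above the other two. These had log2 fold changes of 0.14 and 0.18 (limma adjusted p = 0.729 and 0.777).

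Ccnd2, another D cyclin that growth signals induce and that can stand in for Ccnd1, was read by 7 probe sets, 6 with a higher and 1 with a lower mean log2 signal in Et1 arrays. The brightest, 1416122_at, read 4227, 4360.0 and 3323 in Et1 arrays, against 3391, 3702 and 3278 in control arrays, with 2 Et1 arrays above every control and the third among them. Its log2 fold change was 0.19 (SE 0.14, limma adjusted p = 0.618). The 1 without overlap was 1455956_x_at, which read 2529, 2005 and 2108 in Et1 arrays and 1720, 1666 and 1978 in control arrays. It had the largest Ccnd2 difference, 0.31 on the log2 scale (SE 0.14, 95% interval -0.02 to 0.63, limma adjusted p = 0.433). In 1430127_a_at the signals were 2974, 3121 and 2221 in Et1 arrays and 2243, 2609 and 2195 in control arrays, and in 1434745_at they were 2647, 3542 and 2017 in Et1 arrays and 2604, 3319.9 and 2089.5 in control arrays. Et1 replicate 3 was among or below the controls in both, and the log2 fold changes were 0.23 and 0.02 (adjusted p = 0.606 and 0.980, limma). The suffix _x marks a probe set with probes that may also bind other transcripts.

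The other Ccnd2 probe sets spread far more within groups. In 1416123_at the signals were 220, 645 and 328 in Et1 arrays and 397, 555 and 218 in control arrays, so that either group spans more than a 2-fold range and the means are nearly equal (398 ± 221 in Et1 and 389.9 ± 169 in control arrays, SD, n = 3). In 1416124_at they were 363, 633 and 247 in Et1 arrays and 375, 486 and 253 in control arrays. In 1448229_s_at they were 1125, 1979 and 1038 in Et1 arrays and 1298, 1542 and 808 in control arrays. In these 3 probe sets, Et1 replicate 2 was the highest of all arrays and control replicate 2 the second. The log2 fold changes were -0.01, 0.10 and 0.17 with standard errors of 0.43, 0.35 and 0.30, against 0.14 to 0.16 for the steadier Ccnd2 probe sets 1416122_at, 1430127_a_at and 1455956_x_at.

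Ccnd3, the D cyclin best known from lymphoid cells and differentiating muscle, was represented by 1 tested probe set, 1415907_at. It read 563, 591 and 421 in Et1 arrays, against 733, 760.0 and 529 in control arrays. The Et1 mean was lower, and control replicate 3 lay among the Et1 arrays. The log2 fold change was -0.36 (SE 0.20, 95% interval -0.82 to 0.10, limma adjusted p = 0.521), and it was -0.21 without Et1 replicate 3. Its sign is opposite to that of every Ccnd1 probe set, and a difference between the cyclins was not tested. The other Ccnd3 probe sets lay below the filter: 1444323_at had 15.6 to 47.4 in Et1 arrays and 20.2 to 63.6 in control arrays, and 1438805_at had 6.03 to 17.7 in Et1 arrays and 4.40 to 15.3 in control arrays.

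Cdk4, the kinase that the D cyclins activate, had 3 probe sets, and each of them separated the groups. The signals of 1422440_at were 827, 817 and 827 in Et1 arrays, against 689, 634 and 785 in control arrays. The Et1 arrays lay close together (824 ± 5.58) and the controls were wider apart (703 ± 76.1, SD, n = 3), for a log2 fold change of 0.23 (SE 0.14, limma adjusted p = 0.546). In 1422439_a_at the Et1 arrays read 1074, 1108 and 1122 and the control arrays 970.1, 1058 and 947, a log2 fold change of 0.15 (adjusted p = 0.665, limma). In 1422441_x_at they read 1669.6, 1259 and 1351 in Et1 arrays and 1005, 1129.7 and 1257 in control arrays. The lowest Et1 and highest control array were nearly equal there, and the log2 fold change of 0.33 had a 95% interval of -0.03 to 0.69 (SE 0.16, limma adjusted p = 0.447). The 3 probe sets read 1 gene in the same arrays, so their shared direction is not 3 observations. The start region of Cdk4 carries the E-box letters 4 times, and a link between these letters and the signals was not tested.

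Of the Cip/Kip inhibitors, Cdkn1a (p21), which p53 induces, had 2 probe sets of opposite sign. In 1424638_at the signals were 1014, 1780.4 and 1187 in Et1 arrays, against 1724, 1695 and 873 in control arrays. Et1 replicate 2 and control replicates 1 and 2 formed the upper arrays and the other three the lower ones, whatever the treatment. The means were 1327 ± 402 in Et1 and 1431 ± 483 in control arrays (SD, n = 3), a log2 fold change of -0.08 (SE 0.30, limma adjusted p = 0.935). In 1421679_a_at the spread was small, with 346, 404 and 344 in Et1 arrays and 327, 291 and 359 in control arrays. Its log2 fold change of 0.16 had a 95% interval of -0.20 to 0.52 (adjusted p = 0.714, limma), which bounds a change at 1.44-fold higher in Et1 for the transcripts this probe set reads.

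Cdkn1b (p27), which accumulates in cells deprived of growth factors, read 223, 227 and 199.6 in Et1 arrays, against 335, 228 and 209 in control arrays, in 1434045_at. Control replicate 1 stood alone above the other 5 arrays, and the log2 fold change of -0.22 (SE 0.20, limma adjusted p = 0.702) was -0.01 without it. Its other probe set, 1419497_at, lay below the filter with 8.04 to 16.9 in Et1 arrays and 3.58 to 36.4 in control arrays. Cdkn1c (p57), an imprinted inhibitor of embryonic growth, read 62.5, 51.8 and 32.6 in Et1 arrays and 67.4, 92.8 and 65.6 in control arrays. All Et1 arrays were below all controls, at signals not far above the filter. The log2 fold change was -0.65 (SE 0.31, 95% interval -1.36 to 0.06, limma adjusted p = 0.444), and it was -0.34 with 50 added to each signal and -0.38 without Et1 replicate 3.

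Of the INK4 inhibitors, Cdkn2c (p18), which restrains Cdk4 and Cdk6 during differentiation, stood farthest from control relative to its error. It read 150, 123 and 91.5 in Et1 arrays, against 163, 219 and 179 in control arrays. Every Et1 array was below every control array, with means of 122 ± 29.5 in Et1 and 187 ± 28.6 in control arrays (SD, n = 3), or 0.643 times the control level. The log2 fold change was -0.64 (SE 0.22, 95% interval -1.14 to -0.13), with an unadjusted p of 0.0194 that did not survive adjustment over all probe sets (adjusted p = 0.294, limma). Under the 15 other settings tried it stayed between -0.81 and -0.45, with limma adjusted p from 0.140 to 0.705.

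Cdkn2b (p15), an inhibitor that TGF-beta induces and whose gene neighbours Cdkn2a, read 243, 319 and 297 in Et1 arrays, against 358, 301 and 221 in control arrays. The Et1 arrays lay within the range of the controls and the log2 fold change was -0.02 (SE 0.21, 95% interval -0.50 to 0.47, limma adjusted p = 0.984). Cdkn2a, the gene of p16 and, from another first exon, of ARF, a protein that stabilises p53, read 53.2, 34.2 and 36.1 in Et1 arrays and 43.3, 55.5 and 51.0 in control arrays. These signals were near the filter and overlapped, with a log2 fold change of -0.30 (SE 0.32, limma adjusted p = 0.738), and its transcripts are not told apart here. Among the 7 tested inhibitor probe sets 6 had lower mean log2 signals in Et1 arrays (with Cdkn2b and Cdkn1a 1424638_at turning under other settings). Among the 11 of D cyclins 9 had higher mean log2 signals (with the 3 Ccnd2 probe sets 1416124_at, 1434745_at and 1448229_s_at turning). Of these 11, 3 read Ccnd1, 7 Ccnd2 and 1 Ccnd3, and probe sets of 1 gene are not separate observations.

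The arrays also differed on a technical measure that moved with some members. Bacillus transcripts, used as poly(A) spike-ins on this array type, are read by 27 probe sets. Their mean log2 signal was 4.75 to 5.64 on Et1 replicates 1 and 3 and control replicate 3 (the high set). It was 3.45 to 3.57 on Et1 replicate 2 and control replicates 1 and 2 (the low set). Off the log2 scale these means lie near or below the filter of 41.0. The sources used here do not state whether such controls were added. With the group kept in the model, the high set differed from the low set by -1.19, -0.92 and -0.84 on the log2 scale for the Ccnd2 probe sets 1416123_at, 1416124_at and 1448229_s_at, yet by -0.17 for 1416122_at and 0.21 for 1455956_x_at. For Cdkn1a it was -0.83 in 1424638_at and 0.00 in 1421679_a_at. Probe sets of the same gene thus ranked the same arrays differently. The set difference exceeded the Et1 difference in size for 10 of the 21 probe sets, and for 57.6% of all tested ones. The set differences are given as fitted sizes without p-values, and their cause was not tested.

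**Figure D3:**
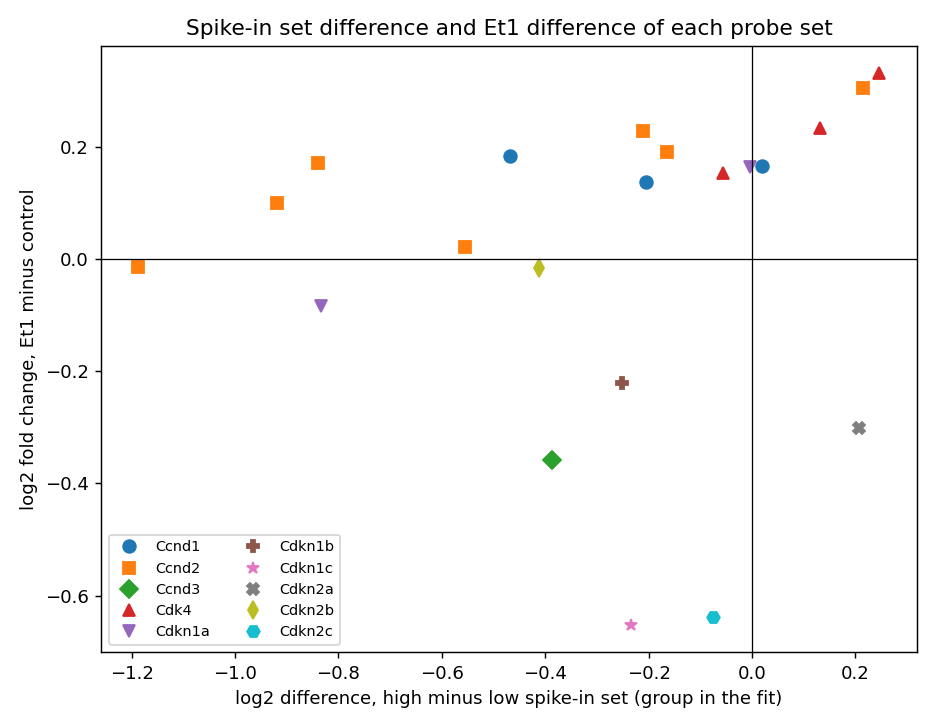
Each point is 1 of the 21 tested probe sets, placed by its log2 difference between spike-in sets (horizontal, high minus low) and its log2 fold change (vertical, Et1 minus control), with a symbol per gene. Ccnd2 runs from -1.19 to 0.21 along the horizontal axis, while Cdkn2c (-0.08) and Cdkn1c (-0.23) lie low and nearer to 0 on it.

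Compared within sets, Cdkn2c differed by -0.62 in the low set (1 Et1 array against 2 controls) and by -0.61 in the high set (2 against 1), and Cdkn1c by -0.61 and -0.54. The Cdk4 probe sets were above 0 in both sets, at 0.08 to 0.26 in the high set and 0.13 to 0.31 in the low set. The Ccnd2 probe sets likewise had higher mean log2 signals in Et1 arrays in each set. The differences were 0.24 to 0.57 in the low and 0.15 to 0.42 in the high set. In the high set, Et1 replicate 3 was below control replicate 3 for 1416124_at (247 against 253) and 1434745_at (2017 against 2089.5). Across the 21, 18 had the same sign in both sets, against 64.5% of all tested probe sets. Many of the 21 read the same gene, so they are not separate observations. With the set as a block, limma called 0 of the 21, the nearest being Ccnd2 1448229_s_at at a log2 fold change of 0.45 (adjusted p = 0.0508, limma), where 868 of all 22519 probe sets passed.

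The other genes of the G1 pathway were taken by role, each by its brightest tested probe set. Of 56 tested genes in 4 lists, 0 passed the threshold in limma, beside 0.137% higher and 0.274% lower calls among all 11666 genes so represented. At an unadjusted p under 0.05, 5 were higher and 1 lower in Et1 arrays, where 6.93% and 6.53% of all genes were. The 56 had a median log2 fold change of 0.06, and all genes one of 0.05.

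Among 11 partners of the members in G1, Ccna2, the cyclin of S phase and G2 whose gene E2F controls, read 812, 685 and 484 in Et1 arrays, against 1164, 1132 and 802 in control arrays. The groups overlapped by 1 array, at a log2 fold change of -0.66 (SE 0.23, limma adjusted p = 0.293). Mnat1 and Ccnh, subunits of the kinase that activates CDKs, stood at 0.60 and 0.62, and their set differences were 0.65 and 1.01. Cdkn2d (p19), the remaining INK4 inhibitor, read 298, 215 and 221 in Et1 arrays and 306, 296 and 343 in control arrays. It overlapped by 1 array and stood at -0.38 (adjusted p = 0.439, limma). Of 12 tested pocket protein and E2F genes, 0 had an unadjusted p under 0.05 in the brightest probe set. Over all 21 tested probe sets of these genes the smallest adjusted p was 0.265 (limma). By brightest probe set, E2f1, an activator of S phase genes, had the smallest p, with a log2 fold change of 0.45 (adjusted p = 0.528, limma). The next were E2f6 at 0.21, E2f4 at -0.56 and E2f7 at -0.22, repressors or mixed regulators of the family, of which E2f4 had a set difference of -1.46.

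Among 15 tested genes that act in the breakdown of D cyclins and inhibitors, 0 had an unadjusted p under 0.05 in the brightest probe set. Over all 30 tested probe sets of these genes the smallest adjusted p was 0.276 (limma). Skp1, a subunit of the SCF ubiquitin ligases, stood at 0.45, Pcna, on which the CRL4 ligase recognises p21, at 0.37, and Dtl, the subunit that does so, at 0.19. Ddb1, an adaptor of the same ligase, had Et1 arrays all below the controls (1349, 1649 and 1321 in Et1, against 1668, 1682 and 1656 in control arrays) at a log2 fold change of -0.22 (adjusted p = 0.557, limma).

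Of 18 tested regulators of the members' transcription, 4 had higher means at an unadjusted p under 0.05 (limma), beside 6.93% of all genes. This was 1 of 4 lists, and over all 56 tested genes there were 5. Myc, which represses Cdkn1a and Cdkn2b and acts on Cdk4 through E-boxes, read 705, 801 and 804 in Et1 arrays, against 489, 486 and 582 in control arrays. The groups were well apart, at a log2 fold change of 0.57 (SE 0.15, limma adjusted p = 0.162). A link between Myc and the Cdk4 values was not tested. Mdm2, which p53 induces as it does Cdkn1a, read 1083, 1016 and 1076 in Et1 arrays and 831, 757 and 822 in control arrays. It too was higher in every Et1 array, at 0.40 (SE 0.13, limma adjusted p = 0.264), where the Cdkn1a probe sets stood at 0.16 and -0.08. Ets2, a factor downstream of Ras that can act on Ccnd1 and Cdkn2a, read 290.4, 299 and 329 in Et1 arrays and 239, 205 and 227 in control arrays (log2 fold change 0.45, limma adjusted p = 0.277). Foxo4, one of the FOXO factors that raise Cdkn1b, stood at 1.01 with a mean signal of 46.5 and overlapping groups (adjusted p = 0.400, limma), and at 0.48 with 50 added.

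**Figure D4:**
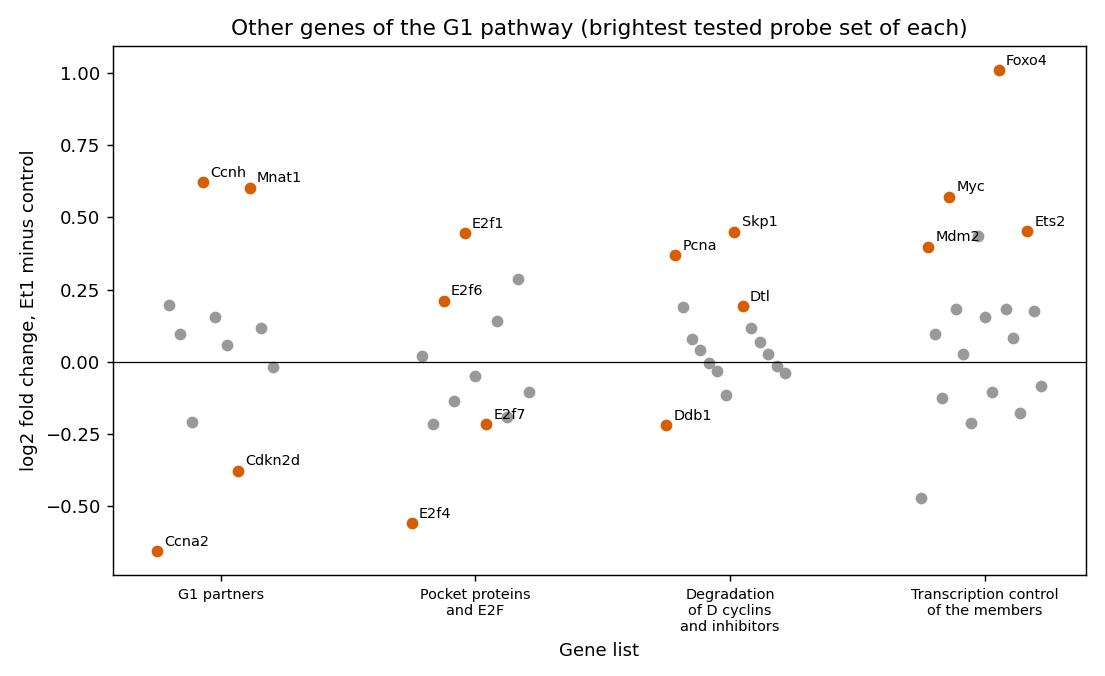
Log2 fold change (vertical, Et1 minus control) of the 56 tested genes of the 4 lists, each by its brightest tested probe set; orange points are the 4 genes of each list with the smallest unadjusted p, and grey points the rest. Myc, Mdm2 and Ets2 lie between 0.40 and 0.57, and no point passed an adjusted p of 0.05.

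The deposited signals had 2% trimmed means of 91.7 to 179 on Et1 arrays and 135 to 166 on control arrays, and values above are scaled to a common mean of 139. The 3′ to 5′ signal ratio of the beta-actin controls was 1.15 to 1.23 on Et1 arrays and 1.18 to 1.19 on control arrays. Of 10 dermal fibroblast markers, 9 passed the filter, led by Vim (mean signal 8781), while Lum did not pass. Their summed signal was 15875 to 27704 on Et1 arrays and 22196 to 36456 on control arrays. The brightest keratinocyte, melanocyte, endothelial, leukocyte and Schwann cell markers read 49.3 to 155. The summed signal of the smooth muscle and pericyte markers, led by Cnn1, was 1044 to 1606 on Et1 arrays and 2226 to 3192 on control arrays, and its part in the values above was not tested. Most of that sum was Cnn1 (929 in Et1 and 2064 in control arrays) and Mcam (239 in Et1 and 551 in control arrays). Des had means of 55.2 in Et1 and 55.8 in control arrays, Rgs5 53.4 in Et1 and 50.5 in control arrays, and Kcnj8, below the filter, 18.4 in Et1 and 13.9 in control arrays. Myh11 had 56.3 in Et1 and 94.6 in control arrays.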

How the data were processed

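RNA was measured on Affymetrix Mouse430_2 arrays (the chip type per the file headers), 1 for each of 3 Et1 and 3 control cultures, grouped by their titles. The authors deposited 1 linear intensity for each probe set, computed with MAS5 per the submitters' processing notes. The MAS5 version and target scaling were not given in the sources used here. Arrays were scaled to a common 2% trimmed mean (139), 4 zeros were replaced by the lowest nonzero signal on that array, and signals were put on the log2 scale without a pseudocount. After 64 Affymetrix controls were left out, 45037 probe sets remained, and 22519 with a mean signal at or above the median (41.0) were tested with limma 3.58.1 in R 4.3.3 (eBayes with an intensity trend, no block, Benjamini-Hochberg over all tested, threshold 0.05). A fold change near the filter is sensitive to background. The number of arrays limits the precision. Names came from the platform annotation, in which 34945 probe sets had 1 symbol, 932 several and 9160 none.

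The members, gene lists and tests were chosen with earlier results of these data known. Every member probe set was described. Of each pathway list, the 4 genes with the smallest unadjusted p in their brightest tested probe set were named, and any with a probe set past the threshold. Of the lists 2 symbols, Skp1a (an older name of Skp1) and Trp53, were not analysed here, and E2f2 and Tbx2 lay below the filter. Alternatives were quantile normalization, median centring, 50 added before log2, a filter at the 75th percentile or none, no trend, no _x_at or _s_at probe sets, leaving out single arrays, and a block for the replicate number or for the spike-in set. The spike-in sets were divided at the largest gap in the mean signal of the Bacillus controls. The fit was tried on simulated data with independent noise in each array. That simulation did not include the spike-in set difference between these arrays. The experiment files give 1 fluidics and scanner setting for all 6 arrays, so no batch could be taken from them.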

Additional observations from a re-analysis of the deposited data

How the results depend on the processing

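Under each of the 15 alternatives, limma called 0 of the member probe sets, higher or lower, although the count over all probe sets ran from 4 without control replicate 1 or 2 to 868 once the spike-in set was a block. Against 78 over all probe sets in the reported fit, it was 44 with median centring, 40 with no filter, 7 with no intensity trend and 4 to 229 with 1 array left out, where the highest was without control replicate 3. Of 310 values of the 21 probe sets under the alternatives, 290 kept their sign. With that block the log2 fold change turned to 0.38 for Ccnd2 1416123_at, 0.19 for Cdkn1a 1424638_at and 0.12 for Cdkn2b, and median centring turned Ccnd2 1434745_at to -0.030. With 1 array left out, the range was -0.44 to 0.34 for Ccnd2 1416123_at, -0.26 to 0.42 for 1416124_at, -0.18 to 0.22 for 1434745_at and -0.12 to 0.37 for 1448229_s_at. It was -0.41 to 0.089 for Cdkn1a 1424638_at and -0.21 to 0.14 for Cdkn2b. The cause of these turns was not tested. Median centring moved the median of all tested probe sets from 0.03 to -0.02.

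Samples of the same number did not deviate together throughout: the correlations of their deviations from the group means were -0.12, 0.44 and 0.45. Between different numbers they ran from -0.57 (Et1 2 with control 3) to 0.33 (Et1 2 with control 1). All positive values were between arrays of the same spike-in set, so they do not show whether equal numbers share a culture. With the replicate block 567 of 22519 probe sets passed and 0 members; Cdkn2c stood at -0.64 (limma adjusted p = 0.140). Of the pathway genes, Ccna2 passed with that block (-0.66, limma adjusted p = 0.0369) and Myc with the spike-in set block (0.54, limma adjusted p = 0.0349). Over their alternatives the limma adjusted p ran from 0.0369 to 0.776 for Ccna2 and from 0.0349 to 0.607 for Myc.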
